A study of Mus musculus with 4 samples.

Results

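The SLC25 genes encode the carriers that move metabolites, nucleotides and cofactors across the inner mitochondrial membrane, and their messenger RNA was followed here in the livers of 4 male mice. The members were all genes whose symbol begins with Slc25a and a digit. Of 48 such symbols 1 ended in -ps, the mark of a pseudogene, and was left out, so that 47 members remained of 46603 genes in the count table. All 4 mice were HuRflox/flox mice on the C57BL/6 J background, and all were fed WDSW, a Western diet with 42% of its energy from fat and 0.1% cholesterol, given with sugar water holding 23.1 g/L fructose and 18.9 g/L glucose, for 4 weeks. Mice 3 and 4 carry the label HuR hKO and had received AAV8 with Cre recombinase under the thyroxine-binding globulin promoter, which is active in hepatocytes, while mice 1 and 2 carry the label control and had received AAV8 with GFP under that promoter. The ages of the mice are not given in the sources used here.

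Each carrier is built from 3 repeats of a paired membrane-spanning segment, and a repeat typically holds a signature that begins with proline and goes on with acidic and basic residues. Many of the carriers exchange one compound for another, such as ADP for ATP or malate for phosphate, and so couple the reactions of the matrix to those of the cytosol. In the liver the carriers serve the respiratory chain, the urea cycle, fatty acid oxidation, gluconeogenesis and the export of citrate for lipid synthesis.

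The signature was searched for in the longest complete coding sequence of every gene, as 6 codons for proline, any, acidic, any, any and basic residue. In 27 of the 47 members it occurred at least 3 times, as it did in 2.33% of the 21479 other protein-coding genes. It occurred 2 times in 12 members, 1 time in 5 members and not at all in Slc25a46, Slc25a51 and Slc25a53. The lines here give the first signature that lay within an exon of 6 members, because it is the stretch the family shares, in members whose levels are compared further on. They are coding sequence of GRCm38 read 5′ to 3′ on the strand of the gene, and the capitals mark the codons of the proline, the acidic and the basic residue.
Slc25a5, chrX:36795812-36795829, plus strand: CCCatcGAGagggtcAAG
Slc25a4, chr8:46210824-46210841, minus strand: CCGatcGAGagggtcAAA
Slc25a47, chr12:108853375-108853392, plus strand: CCTctgGATacagtgAAG
Slc25a29, chr12:108831197-108831214, minus strand: CCTtttGACatagtcAAG
Slc25a13, chr6:6109299-6109316, minus strand: CCTatcGATcttgtaAAG
Slc25a1, chr16:17927597-17927614, minus strand: CCGaccGAAtacgtgAAG

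The members encode proteins of 265 to 677 residues, with a median of 318. Over the whole coding sequence, signature included, the median identity over 1081 pairs of members was 46.6%. The closest pair was Slc25a4 with Slc25a5, which were identical at 77.5% of aligned bases, followed by Slc25a12 with Slc25a13 at 70.6% and Slc25a18 with Slc25a22 at 68.1%.

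The libraries held between 13032095 and 19715577 counts, of which the members together took 0.402%, 0.440%, 0.445% and 0.465% in mice 1 to 4. The hepatocyte genes Alb, Apoa1 and Ttr were each at 5404 CPM or more in every library (CPM, counts scaled to the same library size for every mouse), whereas Acta1 and Ckm of skeletal muscle had a count of 0. Elavl1, the gene of HuR, was the targeted gene and had 28.3 and 25.9 CPM in mice 1 and 2 against 37.7 and 34.4 CPM in mice 3 and 4. It was thus not lower but higher by the fit under the knockout label, with both values above both controls. The log2 fold change was 0.41 ± 0.14 (SE), with an interval from 0.10 to 0.72. The unadjusted p was 0.016 and the adjusted p was 0.545 in edgeR's quasi-likelihood test. The log2 fold change stayed positive in every alternative fit described further on, from 0.33 (without mouse 3) to 0.72 (no scaling for library size). Which part of the gene the flox sites bound is not given in the sources used here. The directions reported here are therefore those of the libraries as labelled.

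Per kilobase of exons, Slc25a5 had the highest mean level of the family, with 227, 240, 218 and 226 CPM per kilobase in mice 1 to 4. Slc25a5 (ADP/ATP translocase 2), the carrier that brings ADP into the matrix and ATP out, lies at chrX:36795651-36798807. Slc25a47, a carrier found mainly in the liver, followed with 134, 217, 200 and 319 CPM per kilobase. It stood above Slc25a5 in mouse 4 alone, and the ranges of these genes overlapped. With the longest transcript as the length in place of all exons, Slc25a47 came first by the mean, at 343 CPM per kilobase against 302 in Slc25a5.

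Then came Slc25a39, the mitochondrial glutathione carrier, at a mean of 164 CPM per kilobase, Slc25a1, the citrate carrier that feeds cytosolic acetyl-CoA, at 133, and Slc25a10, the dicarboxylate carrier, at 119. The ranges of Slc25a1 and Slc25a10 overlapped over the 4 mice, and by the longest transcript their order was the other way round (173 and 203 CPM per kilobase). Slc25a3, which imports the phosphate for ATP synthesis, had 61.2, Slc25a13 (citrin), the aspartate/glutamate carrier of the malate-aspartate shuttle and the urea cycle, had 53.8, and Slc25a23, an ATP-Mg/phosphate carrier, had 41.3 CPM per kilobase. These 8 members made up 76.1% of the summed level per kilobase of the family.

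The order was steep below them. By mean CPM without division by length, 13 members were at 100 CPM or above, 17 between 10 and 100, 10 between 1 and 10, and 7 below 1.

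**Figure D1:**
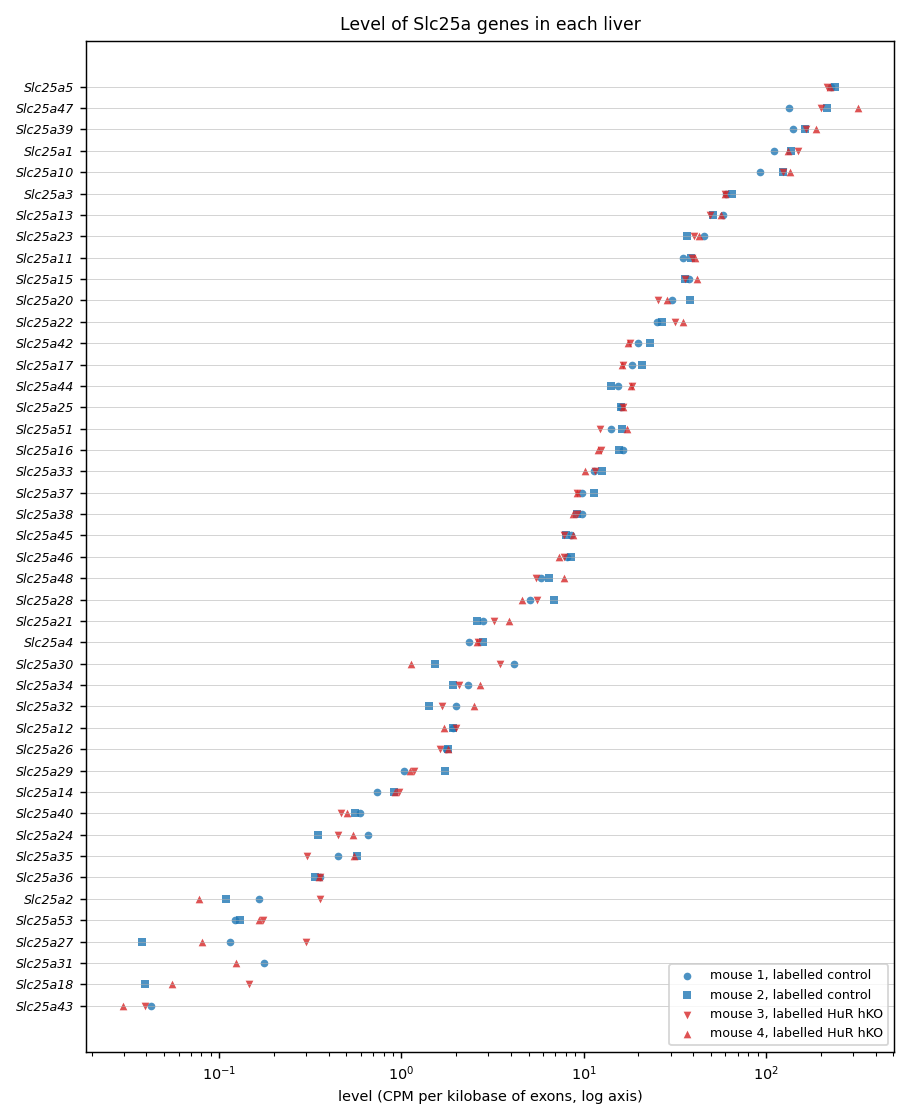
Level of 44 of the 45 Slc25a genes with a count, in each mouse, in CPM per kilobase of exons on a log axis, ordered by mean. Each symbol is 1 mouse (blue, control; red, labelled HuR hKO); a mouse with 0 counts has no symbol, and Slc25a41 and Slc25a54 had none in any mouse. The levels run from about 0.03 CPM per kilobase (Slc25a43) to 319 (Slc25a47 in mouse 4), and symbols of both groups lie together on most lines.

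A filter on low counts left 40 members for the test and 7 outside it. Slc25a41 and Slc25a54, both of the ATP-Mg/phosphate branch, had 0 counts in all 4 libraries, which allows at most 0.225 CPM in the control mice and 0.209 CPM in mice 3 and 4 (3 counts in the shallower library of each group, counting error only). Slc25a43 had 1, 0, 1 and 1 counts, Slc25a18, the second glutamate carrier, had 0, 1, 4 and 2, and Slc25a2, the second ornithine carrier, had 3, 2, 7 and 2. Slc25a31, the ADP/ATP translocase of the testis, had 5, 0, 0 and 5 counts. Slc25a27, an uncoupling protein relative of the brain, had 6, 2, 17 and 6 counts and was highest in mouse 3.

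Several pairs of related carriers stood far apart in level, others were close, and each pair kept its order in every mouse. Slc25a5 was 95.9, 85.2, 82.6 and 86.5 times as high per kilobase as Slc25a4, the translocase of heart and skeletal muscle. Slc25a13 was 24.5 to 33.3 times as high as Slc25a12, its counterpart in muscle and brain, and Slc25a39 was 239 to 371 times as high as Slc25a40. Slc25a37 (mitoferrin 1), the iron carrier known from erythroid cells, was 1.65 to 2.01 times as high as Slc25a28 (mitoferrin 2). Slc25a42 was 1.21 to 1.49 times as high as Slc25a16, Slc25a23 2.30 to 2.82 times as high as Slc25a25, and Slc25a10 2.67 to 3.31 times as high as Slc25a11. Among the carriers of pyrimidine nucleotides, Slc25a33 was 28.6 to 37.7 times as high as Slc25a36. This ratio depended on the length used. The mean of Slc25a36 was 0.351 CPM per kilobase by all exons and 0.644 by the longest transcript, and that of Slc25a33 was 11.4 by both. Reads that match both members of a pair could be divided between them, and how the counting did this is not given in the sources used here.

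Slc25a29 and Slc25a47 are next to each other on chromosome 12 on opposite strands, with 162 bases between their annotated ends, where non-coding transcripts of Slc25a47 begin. The RefSeq start of Slc25a47 lies much further along, after chr12:108851128, while Slc25a29 ends at chr12:108835883. Slc25a47 was 124 to 285 times as high per kilobase as Slc25a29, a carrier of basic amino acids. The promoters of these neighbours, and those of the closest pair by sequence, Slc25a5 and Slc25a4, are shown because they stood so far apart in level. Each line gives the 250 bases before the start site in RefSeq (GRCm38.p6), 5′ to 3′ on the strand of the gene, with matches to 6 motifs in capitals. The annotation used for the exon lengths places some starts elsewhere. By it the Slc25a47 window lies within the gene, as does the Slc25a4 window from chr8:46211063 to 46211284. The TATA box was searched as TATAAA. The CCAAT box was searched by its own letters, and the GC box as GGGCGG. The palindromic E-box was searched as CACGTG, the core of the NRF1 motif over 10 bases of which 1 was free, and an ETS motif as CCGGAAG. Each was searched on both strands, with overlaps allowed.
Slc25a47, chr12:108850879-108851128, plus strand: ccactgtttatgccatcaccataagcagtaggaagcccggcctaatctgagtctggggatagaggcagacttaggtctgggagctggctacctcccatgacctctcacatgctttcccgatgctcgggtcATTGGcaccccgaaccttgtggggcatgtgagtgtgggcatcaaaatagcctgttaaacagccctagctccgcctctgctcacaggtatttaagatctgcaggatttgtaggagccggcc
Slc25a29, chr12:108835877-108836126, minus strand: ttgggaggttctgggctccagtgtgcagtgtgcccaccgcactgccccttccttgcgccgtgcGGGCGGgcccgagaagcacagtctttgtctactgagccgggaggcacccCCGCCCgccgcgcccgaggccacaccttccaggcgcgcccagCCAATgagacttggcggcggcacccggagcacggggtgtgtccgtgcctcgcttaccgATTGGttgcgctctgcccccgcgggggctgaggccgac
Slc25a5, chrX:36795347-36795596, plus strand: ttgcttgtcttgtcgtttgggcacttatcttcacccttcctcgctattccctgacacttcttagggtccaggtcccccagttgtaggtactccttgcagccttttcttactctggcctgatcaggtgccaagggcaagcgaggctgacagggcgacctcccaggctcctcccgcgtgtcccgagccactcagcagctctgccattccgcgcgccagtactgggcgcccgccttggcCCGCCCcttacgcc
Slc25a4, chr8:46211063-46211312, minus strand: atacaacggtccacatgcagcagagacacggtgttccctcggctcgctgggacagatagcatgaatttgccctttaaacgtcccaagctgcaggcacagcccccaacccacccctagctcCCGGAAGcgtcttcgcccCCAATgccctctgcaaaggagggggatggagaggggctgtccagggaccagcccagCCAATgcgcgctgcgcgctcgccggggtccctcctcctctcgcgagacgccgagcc

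The G and C content of these stretches was 54.4% in Slc25a47, 71.2% in Slc25a29, 61.6% in Slc25a5 and 64.8% in Slc25a4. RefSeq windows of 300 bases, of which 50 lie after the start, were matched for 36 members, and the first window of each gene was searched. The GC box was in 30 of the 36 windows (83.3%) and in 35.9% of the windows of 27025 genes. The CCAAT box was in 17 (47.2%, against 37.9%), the ETS motif in 7 (19.4%, against 9.12%), the E-box in 6 (16.7%, against 7.24%), the NRF1 core in 2 (5.56%, against 4.78%) and the TATA box in 1 (2.78%, against 14.2%). The members' windows were also richer in G and C, with a median of 60.2% against 52.7%. These are matches of letters, and binding at them was not measured.

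The comparison of the groups asked whether the carriers differed in the livers labelled HuR hKO. No member passed an adjusted p of 0.05 in edgeR's quasi-likelihood test over 13001 genes (Benjamini-Hochberg), and the smallest adjusted p of a member was 0.530. Among all genes 3 passed in that test (0.0231%). The DESeq2 Wald test, edgeR's exact test and limma-voom also called 0 members, while 85, 119 and 2 of all genes passed in them. At an unadjusted p under 0.05 there were 4 members of 40, of which 3 were higher (7.5%, against 4.04% of all genes tested) and 1 was lower (2.5%, against 3.39%). Without mouse 4 the log2 fold changes of these 4 were -0.36 in Slc25a16, 0.26 in Slc25a21, 0.29 in Slc25a22 and 0.32 in Slc25a44. No member combined an unadjusted p under 0.05 with a fold change of at least 1.8, as 2.12% of all genes did. With 2 mice a group, an exact permutation test of a single value cannot go below p = 0.333, and the labels name separate mice but say nothing of litters or cages.

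The log2 fold changes of the 40 members ran from -0.39 (Slc25a16) to 0.56 (Slc25a47), with 20 above 0 and 20 below. Their median was -0.00708, beside 0.00197 over all genes tested. The 4 values did not overlap between the groups in 20 members. In 10 of these the libraries labelled HuR hKO were above the control (25%, against 19.3% of all genes tested) and in 10 below (25%, against 18.8%). In 26 of the 40 members (65%, against 74.6% of all genes) the larger difference between 2 mice of a group exceeded the difference between the group means.

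**Figure D2:**
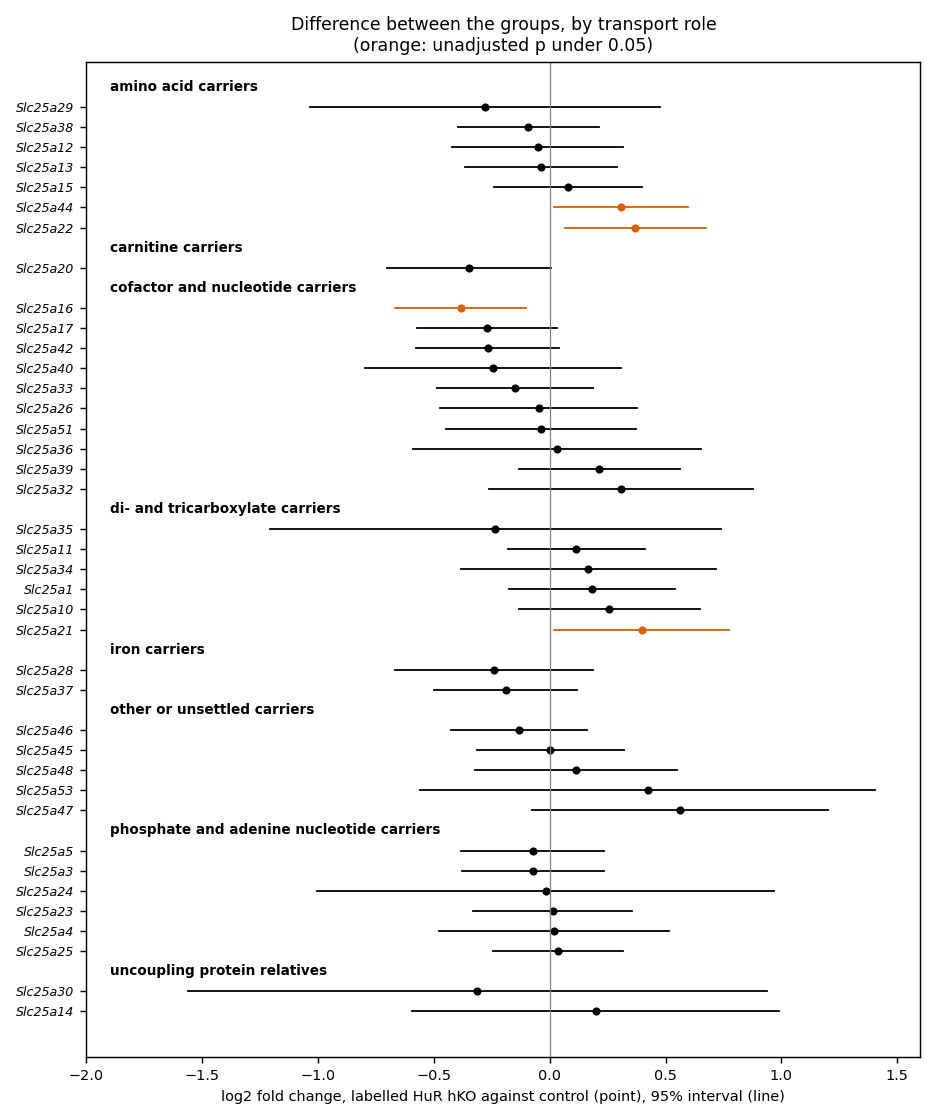
Log2 fold change of 39 of the 40 tested Slc25a genes between libraries labelled HuR hKO and control (points) with 95% intervals (lines), grouped by transport role; orange marks an unadjusted p under 0.05. The orange intervals belong to Slc25a16 on the lower side and to Slc25a21, Slc25a22 and Slc25a44 on the higher side, and the interval of every other member drawn crosses 0.

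Among the phosphate and adenine nucleotide carriers, 9 members of which 6 were tested, the groups lay close together. Slc25a5 had 373, 396, 358 and 372 CPM in mice 1 to 4, and the lower control was just above mouse 4. The log2 fold change was -0.07 ± 0.13 (SE), with a 95% interval from -0.38 to 0.23 (adjusted p = 0.929 in edgeR's quasi-likelihood test). Slc25a3 had 334, 362, 330 and 332 CPM and a log2 fold change of -0.07 ± 0.13 (SE), with an interval from -0.38 to 0.24. These highest members of the group thus had intervals that stayed within a fold change of 1.8 either way, as did Slc25a23, which had 241, 194, 213 and 226 CPM and a log2 fold change of 0.01 (-0.33 to 0.36). With each mouse left out in turn, Slc25a5 ranged from -0.13 to -0.0297, Slc25a3 from -0.14 to -0.0104 and Slc25a23 from -0.13 to 0.16. Slc25a25, an ATP-Mg/phosphate carrier, differed least between mice of a group among the tested members, with 127, 126, 129 and 130 CPM. The summed level of the group was 1083, 1086, 1038 and 1069 CPM.

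Of the 6 di- and tricarboxylate carriers, all tested, 5 had a log2 fold change above 0 and the median was 0.17. Over all genes tested, 50.3% were above 0. Slc25a21 (chr12:56712634-57197472), which carries 2-oxoadipate and 2-oxoglutarate in the breakdown of lysine and tryptophan, had 13.8 and 12.6 CPM in mice 1 and 2 and 15.7 and 18.9 in mice 3 and 4. The groups did not overlap, and the log2 fold change was 0.40 ± 0.16 (SE; adjusted p = 0.641, edgeR's quasi-likelihood test), and 0.26 without mouse 4. Slc25a10 had 321, 427, 428 and 467 CPM, and mouse 1 stood below the other mice. Its log2 fold change was 0.26, with an interval from -0.13 to 0.65, and it was 0.0542 without mouse 1 and 0.48 without mouse 2.

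Slc25a1 had 241, 298, 324 and 288 CPM, so that the groups overlapped, and a log2 fold change of 0.18 (-0.18 to 0.54), which ranged from 0.0241 to 0.35 as each mouse was left out, lowest without mouse 1 and highest without mouse 2. Acly, the cytosolic enzyme that splits the citrate Slc25a1 exports, is one of the enzymes described further on. Slc25a11, the 2-oxoglutarate/malate carrier, had 74.0, 82.7, 82.9 and 86.6 CPM, and shares 8.92% of its exon bases with Rnf167 on the opposite strand. Slc25a35, whose substrate is not settled, shares 31.3% of its exon bases with Rangrf on the opposite strand, and the counts of the pair were nearly the same (22, 28, 16 and 38 for Slc25a35 against 24, 32, 16 and 42 for Rangrf). Whether the counting used the strand is not given in the sources used here, so these reads cannot be told apart.

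Of the 9 amino acid carriers 7 were tested, 3 higher and 4 lower. Slc25a22 (chr7:141429744-141437892), the main glutamate carrier, had 151 and 160 CPM in the control libraries against 190 and 212 in those labelled HuR hKO. Every value under the knockout label was above both controls, with a log2 fold change of 0.37 ± 0.13 (SE) and an adjusted p = 0.574 in edgeR's quasi-likelihood test. Slc25a44 (chr3:88410498-88425139), the carrier of branched-chain amino acids, had 55.4 and 50.7 CPM against 66.3 and 65.1. The pairs of mice were close together and apart from each other, and the log2 fold change was 0.31 ± 0.13 (SE; adjusted p = 0.635, same test).

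The carriers next to the urea cycle did not share that pattern. Slc25a13 had 220, 195, 187 and 217 CPM, with overlapping groups and a log2 fold change of -0.04 (-0.37 to 0.29), which ranged from -0.15 to 0.048 as each mouse was left out. Slc25a15, the ornithine carrier of the cycle, had 213, 202, 202 and 237 CPM and a log2 fold change of 0.08 (-0.24 to 0.40). Slc25a38, which takes glycine in for haem synthesis, had 27.0, 25.4, 25.2 and 24.0 CPM. Slc25a29 had 36, 61, 44 and 55 counts, and its log2 fold change of -0.28 (-1.03 to 0.47) was reversed to 0.14 when mouse 2 was left out.

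Slc25a20, the carnitine/acylcarnitine carrier that brings long-chain fatty acids into the matrix for oxidation, had 148 and 187 CPM in mice 1 and 2 and 124 and 139 in mice 3 and 4. The groups did not overlap, although the controls differed from each other by more than the higher knockout-labelled library differed from the lower control. The log2 fold change was -0.35 ± 0.15 (SE) with an interval from -0.70 to 0.00371 (adjusted p = 0.670, edgeR's quasi-likelihood test). It was -0.17 without mouse 2 and -0.52 without mouse 1. Cpt1a and Cpt2, the transferases that act before and after this carrier, had log2 fold changes of 0.08 and 0.05 with overlapping groups.

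Of the 11 cofactor and nucleotide carriers, all tested, 4 lay wholly below the control under the knockout label and 2 lay wholly above it. Over all genes tested the shares were 18.8% below and 19.3% above. Slc25a16 (chr10:62920633-62946498), a carrier linked to coenzyme A, had 78.6 and 74.7 CPM in the control libraries against 59.6 and 57.8. Its mice differed little within a group, and it had the smallest p of any member (log2 fold change -0.39 ± 0.12 (SE), adjusted p = 0.530, edgeR's quasi-likelihood test). Slc25a42, the coenzyme A carrier of the inner membrane, had 119 and 139 against 108 and 105 CPM, a log2 fold change of -0.27 (-0.58 to 0.04), which was -0.15 without mouse 2 and -0.39 without mouse 1.

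Slc25a17, which carries coenzyme A, FAD and NAD into the peroxisome, had 52.6 and 59.5 against 46.5 and 46.4 CPM, a log2 fold change of -0.27 (-0.57 to 0.03), which was -0.18 without mouse 2. Slc25a40 was the fourth that lay wholly below the control, at 4.96 and 4.70 CPM in mice 1 and 2 against 3.90 and 4.24 CPM in mice 3 and 4, from 56 to 80 counts a library. Its partner Slc25a39 lay wholly above the control, with 389 and 449 CPM in mice 1 and 2 against 455 and 518 CPM in mice 3 and 4. The log2 fold change of Slc25a39 was 0.21 (-0.13 to 0.56). It was 0.10 without mouse 1, 0.12 without mouse 4 and 0.32 without mouse 2.

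Some other cofactor carriers had overlapping groups. Slc25a51, the NAD carrier, had 78.0, 89.3, 67.7 and 95.2 CPM, a wider spread within the knockout label than between the groups. Slc25a32, the carrier of folate and FAD, had 12.1, 8.58, 10.2 and 15.3 CPM and a log2 fold change of 0.31 (-0.26 to 0.88), which was -0.0221 without mouse 4, 0.0825 without mouse 2 and 0.56 without mouse 1. Slc25a26, the S-adenosylmethionine carrier, had 8.42, 8.72, 7.87 and 8.70 CPM. None of these had an unadjusted p under 0.05.

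**Figure D3:**
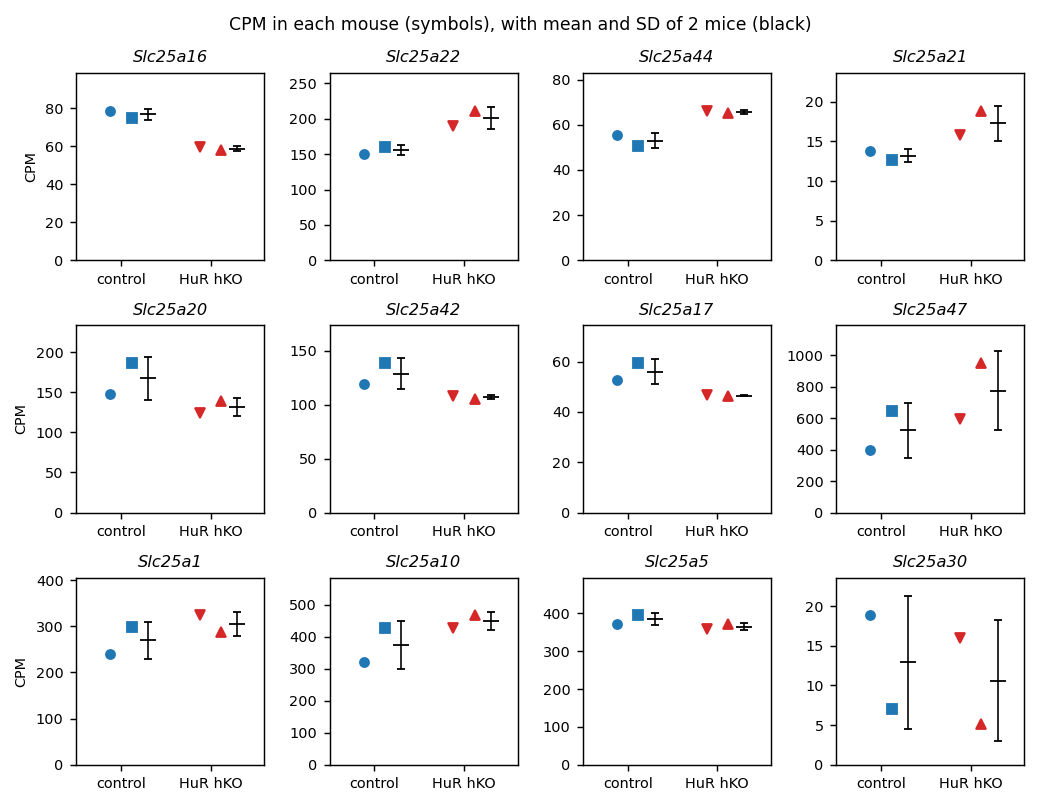
CPM of 12 Slc25a genes in each mouse (symbols as in the plot of levels; blue, control; red, labelled HuR hKO), with the mean and SD of the 2 mice in black and each axis starting at 0. In Slc25a16 the control values of 78.6 and 74.7 CPM lie above 59.6 and 57.8, whereas in Slc25a47 and Slc25a30 the groups overlap.

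The iron carriers Slc25a37 and Slc25a28 were both lower by the fit, with log2 fold changes of -0.19 (-0.50 to 0.12) and -0.24 (-0.67 to 0.19). Slc25a37 had 58.7, 68.4, 55.7 and 55.7 CPM, and its groups did not overlap. Erythroid genes are given beside them: of 7 such genes 5 were tested, and all 5 were higher by the fit. Over all genes tested, 50.3% were higher by the fit. At an unadjusted p under 0.05, 3 of the 5 (Alas2, Hbb-bs and Hbb-bt) were higher, as 4.04% of all genes tested were. Their adjusted p was 0.526, 0.444 and 0.565 in edgeR's quasi-likelihood test. The summed level of the 7 erythroid genes was 363 and 450 CPM in the control libraries against 488 and 710 in those labelled HuR hKO. Slc4a1, the anion exchanger of red cells, was near the floor, at 1, 1, 2 and 5 counts. In whole liver, fewer cells of a type and less RNA per cell cannot be told apart. The part of red cells or of other cell types in these results was not tested.

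Slc25a47 (chr12:108836046-108856815) had the most counts of any member in every library, and varied widely between mice. It had 400 and 648 CPM in mice 1 and 2 and 596 and 952 in mice 3 and 4, so that the groups overlapped. Its share of the family's counts was 10.1%, 14.5%, 13.9% and 19.6%. The log2 fold change of 0.56 ± 0.28 (SE) had an interval from -0.08 to 1.20 (adjusted p = 0.691, edgeR's quasi-likelihood test), and it ranged from 0.19 to 0.95 as each mouse was left out. Without Slc25a47 the family summed to 3541, 3824, 3688 and 3910 CPM, and with it to 3941, 4472, 4284 and 4862 CPM. Slc25a47 alone thus made up more of the difference between mouse 1 and mouse 4 than the other members together.

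Slc25a30, an uncoupling protein relative, had the widest spread of the tested members, with 18.9, 7.01, 16.0 and 5.20 CPM. Mice 1 and 3 were high and mice 2 and 4 low, so that the split ran across the groups. Within the control the mice differed 2.69-fold and within the knockout label 3.07-fold, a spread larger than in 97.3% of all genes tested. The fitted log2 fold change of -0.31 turned to 0.56 without mouse 1 and to 0.30 without mouse 4. Slc25a14, its near relative, had 23, 29, 33 and 41 counts, a log2 fold change of 0.20 (-0.59 to 0.99).

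Of the remaining members, Slc25a53, whose substrate is not known, had 0.977 and 1.04 CPM against 1.39 and 1.33, from 13 to 25 counts a library, and its log2 fold change of 0.42 had an interval of -0.56 to 1.40, which shows how little these counts can tell. Slc25a48 had 19.6, 21.9, 18.4 and 26.4 CPM and Slc25a45 had 23.5, 22.2, 21.7 and 24.1 CPM, both with overlapping groups. Slc25a46, a member of the outer membrane that acts in mitochondrial fission, had 44.0, 46.2, 42.4 and 39.9 CPM, with separate groups and a log2 fold change of -0.13 (-0.43 to 0.16). Further tested members, Slc25a4, Slc25a12, Slc25a24, Slc25a33, Slc25a34 and Slc25a36, had overlapping groups and log2 fold changes between -0.15 (Slc25a33) and 0.17 (Slc25a34).

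**Figure D4:**
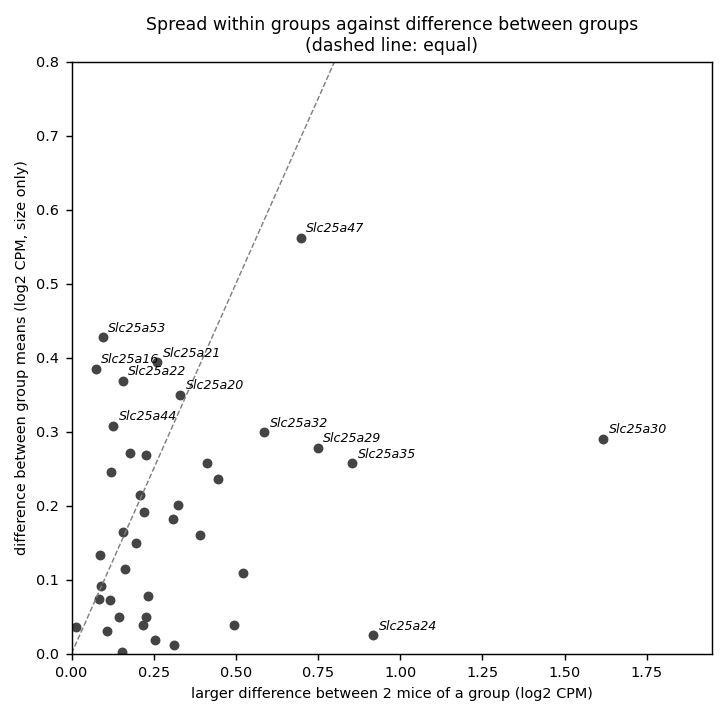
For each of the 40 tested Slc25a genes, the larger difference between the 2 mice of a group (horizontal axis, log2 of the ratio of CPM) against the difference between the group means (vertical axis, log2, size only); on the dashed line both are equal. Most points, 26 of 40, lie to the right of the line, with Slc25a30 farthest out, and Slc25a16, Slc25a22 and Slc25a44 lie to its left.

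HuR binds stretches of messenger RNA rich in A and U, most often in the 3′ UTR, and protects many of the messages it binds. The element AUUUA, written with T in the genome, occurred in the 3′ UTR of 30 of the 40 tested members (75%, against 64.7% of 11952 tested genes with a complete coding transcript). The 3′ UTRs of the members were also longer, with a median of 1118.5 bases against 938.5, and the part of length in these shares was not tested. The median log2 fold change was -0.00708 in the 30 members with the element and -0.0300 in the 10 without it, beside -0.0207 and 0.0497 over all tested genes with and without it. The longer form UUAUUUAUU occurred in 3 tested members (7.5%, against 6.82%). Slc25a32 held the most elements, 17 in a 3′ UTR of 4739 bases, and Slc25a46 held 13. The element with the most A and T around it is shown for the members with an unadjusted p under 0.05, as 21 bases of GRCm38 on the strand of the gene with the element in capitals.
Slc25a16, chr10:62946358-62946378, plus strand: ttaaggtaATTTAaatctata
Slc25a21, chr12:56713617-56713637, minus strand: aagtcaaaATTTAaatatatt
Slc25a22, chr7:141430668-141430688, minus strand: ccagaattATTTAttgaattt
Slc25a44, chr3:88412310-88412330, minus strand: tggggtctATTTAttttttta

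Slc25a16, lower by the fit, held 4 such elements, while Slc25a22, Slc25a21 and Slc25a44, higher by the fit, held 3, 1 and 1. Binding of HuR to these stretches was not measured, and a match of letters is not a site.

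The genes that work beside the carriers were taken as 4 lists. Of the family members under other symbols, Ucp2, an uncoupling protein of the inner membrane, had 30.0 and 27.1 CPM against 34.6 and 39.6, a log2 fold change of 0.38 ± 0.14 (SE), with an unadjusted p under 0.05 and an adjusted p = 0.584 in edgeR's quasi-likelihood test. Mtch2, an insertase of the outer membrane, and Mtch1 had overlapping groups, and Ucp1, the uncoupling protein of brown fat, had 0 counts. None of the 3 tested genes of this list was lower at an unadjusted p under 0.05.

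The carrier proteins are brought into the inner membrane by receptors and pores of the outer membrane and by small chaperones between the membranes. All 16 genes of this machinery were tested, and 14 had a log2 fold change above 0 and 2 below. Over all genes tested, 50.3% were above 0. The median of the 16 was 0.15, which was 0.0306 without mouse 1, 0.0822 without mouse 4 and 0.27 without mouse 2. Of the 16, 1 was higher at an unadjusted p under 0.05, as 4.04% of all genes tested were. This was Timm8b, a small chaperone, with 26.6 and 27.3 CPM in the control libraries against 38.1 and 39.2. Its log2 fold change was 0.52 (adjusted p = 0.360, edgeR's quasi-likelihood test). Tomm70a, the receptor that takes up carriers in the cytosol, had 96.2 and 109 against 113 and 114 CPM (adjusted p = 0.841 in that test). Timm13, another small chaperone, had 70.4, 96.7, 88.3 and 110 CPM, with overlapping groups.

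Of 20 other transporters of the mitochondrial membranes 18 were tested, 9 above 0 and 9 below, with a median of -0.00058 and 0 at an unadjusted p under 0.05. The highest by CPM were Vdac1, the pore of the outer membrane, at 204, 225, 212 and 226 CPM, and Mpc1, a subunit of the pyruvate carrier, at 158, 208, 186 and 217 CPM, both with overlapping groups. Mpc2, the other subunit, had 153 and 190.1 against 195 and 225 CPM, with separate groups and a log2 fold change of 0.29 (adjusted p = 0.711, edgeR's quasi-likelihood test).

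Of 21 enzymes that make or use what the carriers move, all tested, 19 had a log2 fold change above 0, with a median of 0.11. Of all genes tested, 50.3% were above 0. At an unadjusted p under 0.05 there were 4 enzymes, all higher, as 4.04% of all genes tested were. The median of the enzymes was 0.0469 without mouse 1, 0.0351 without mouse 4 and 0.19 without mouse 3. Acly, which turns exported citrate into acetyl-CoA, had 152 and 155 CPM in mice 1 and 2 and 264 and 277 in mice 3 and 4. The groups stood well apart, with a log2 fold change of 0.81 ± 0.13 (SE), but the adjusted p was 0.103 in edgeR's quasi-likelihood test. Gls2, the liver glutaminase that makes the glutamate in the matrix, had 250 and 218 against 314 and 331 CPM, with an adjusted p = 0.490 in the same test.

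Got1, the cytosolic aspartate aminotransferase of the malate-aspartate shuttle, had 120 and 112 against 143 and 228 CPM, and its mitochondrial partner Got2 had a log2 fold change of 0.11. Gpd2, the glycerol-3-phosphate dehydrogenase of the other shuttle, had 41.0 and 43.9 against 55.8 and 53.8 CPM. The adjusted p was 0.510 for Got1 and 0.574 for Gpd2 in edgeR's test. The urea cycle enzymes Cps1, Otc, Ass1 and Asl had log2 fold changes between -0.08 and 0.18, none with an unadjusted p under 0.05.

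**Figure D5:**
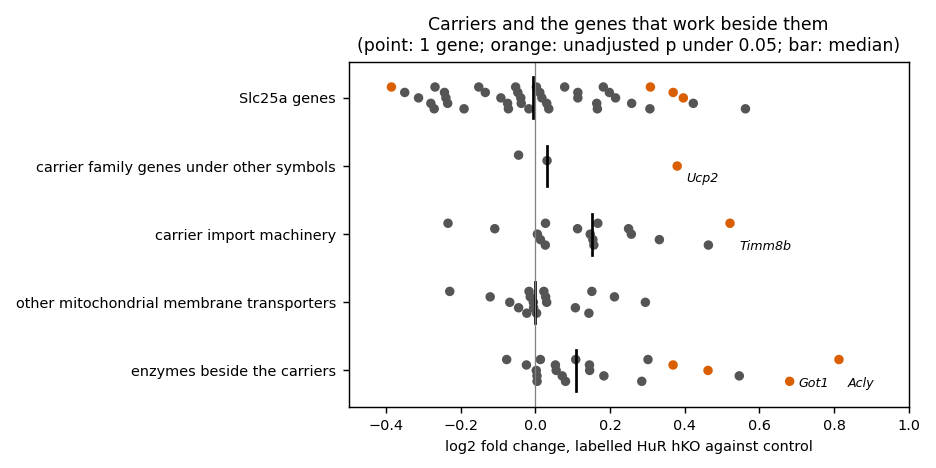
Log2 fold changes of the tested Slc25a genes and of the 4 lists of genes beside them (1 point per gene, shifted up or down only to keep points apart; bar, median; orange, unadjusted p under 0.05). The Slc25a genes are spread evenly about 0 with a median of -0.00708, and the import machinery and the enzymes have medians of 0.15 and 0.11.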

How the data were processed

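RNA-seq was done on liver RNA of 4 mice, 2 control and 2 labelled HuR hKO, with libraries made after Genewiz protocols. The authors deposited 1 table of whole-number counts per gene and mouse for 46603 Ensembl identifiers, without normalization. The submitters' processing notes name RSEM and the build GRCm38 and give no version, and the treatment of strand and of reads that match several genes is not given in the sources used here. Symbols were found for 46005 identifiers, and coordinates, exon lengths and coding sequences came from GENCODE M21 of GRCm38. Promoter windows came from RefSeq (GRCm38.p6).

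Analysis ran in edgeR 4.0.16 under R 4.3.3. Genes with few counts were dropped by its filter (minimum of 10, total of 15), the rest were scaled by TMM, and the groups were compared with its quasi-likelihood test, with p-values adjusted by Benjamini-Hochberg over the 13001 genes kept. The tool the study used for its own comparison is not given in the sources used here. CPM are on the TMM-scaled library sizes, and per-length levels are CPM over the union of exons. The SE was taken from the log2 fold change and the F statistic, and intervals are at 95%. The libraries held 13032095, 13615761, 13806773 and 19715577 counts. Every pair of libraries differed by far more than counting noise (chi-square per degree of freedom 21.2 to 32.7), so none was counted as a repeat.

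Alternatives were DESeq2's size factors, upper quartile factors, no scaling, no filter, at least 10 counts in every library, the DESeq2 Wald test (1.42.0), edgeR's exact test, limma-voom (limma 3.58.1), the robust test, the longest transcript as length, and leaving out each mouse. The tests were tested on simulated data, and the outcome of that is not given here. Tables were made with python 3.11.15, pandas 2.3.3, numpy 2.4.6, scipy 1.17.1, biopython 1.88 and matplotlib 3.10.9.

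Fold changes are given for members with an unadjusted p under 0.05, the 12 with the largest fold change at 1 CPM or more, and the 8 with the highest level per kilobase. Values of other members serve the account of their role group. Lists were the 8 role groups, 4 lists of genes beside the carriers and markers of hepatocytes and 8 other cell types. Members and lists were chosen with earlier results of these data known. Some members and listed genes enter the counts and are not reported by name here.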

Additional observations from a re-analysis of the deposited data

How the results depend on the processing

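No member had an adjusted p under 0.05 in any of the 13 alternatives, although the count over all genes moved from 3 to between 0 (without mouse 3) and 161 (no filter), with 119 in edgeR's exact test, 85 in the DESeq2 Wald test and 155 without scaling. At an unadjusted p under 0.05 there were 4 members, 2 with the exact test, and 0 to 5 when a mouse was left out, 0 of them without mouse 4. Of the 4, Slc25a16 was above that p without scaling and without mouse 3, Slc25a22 without mouse 1, Slc25a21 in the DESeq2 Wald and exact tests and without mouse 1 or 2, and Slc25a44 in both those tests, with no filter and without any 1 of the mice. Slc25a20 came under it with no filter, with at least 10 counts in every library, in the DESeq2 Wald and robust tests and without mouse 1. Slc25a47 did so without scaling, with no filter and without mouse 2 or 3, Slc25a32 without scaling, Slc25a17, Slc25a28 and Slc25a42 without mouse 1, and Slc25a10 without mouse 2. Past a fold of 1.8 there were 0, but 1 (Slc25a47) without scaling for library size and 0 to 1 with a mouse left out, the 1 being Slc25a47 without mouse 2.

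Without scaling, where the deeper library of mouse 4 counts as higher throughout, the median log2 fold change of all genes was 0.31. The medians were then 0.32 in the members, 0.35 in the family genes under other symbols, 0.47 in the import machinery, 0.32 in the other transporters and 0.43 in the enzymes, and the reversed values were 0.24 in Slc25a3, 0.24 in Slc25a5, 0.29 in Slc25a13, 0.0427 in Slc25a17, 0.0294 in Slc25a29 and 0.0426 in Slc25a42. Slc25a23 was -2.57e-06 without a filter. With a mouse left out, the median was -0.0503 to 0.0439 in the members, 0.0306 to 0.27 in the import machinery, 0.0351 to 0.19 in the enzymes, -0.0574 to 0.0711 in the other transporters and -0.0567 to 0.12 in the family genes under other symbols. Leaving out a mouse also turned Slc25a13 (-0.15 to 0.048), Slc25a23 (-0.13 to 0.16), Slc25a29 (-0.62 to 0.14), Slc25a30 (-1.33 to 0.56) and Slc25a32 (-0.0221 to 0.56). With 1 mouse left in a group, that mouse is assumed to vary like the others. Of the 19 members given fold changes by rule, 10 kept their direction in every alternative. The longest transcript in place of the union of exons gave the same 8 highest members in another order, with Slc25a47 above Slc25a5 and Slc25a10 above Slc25a1. Below about 20 counts a library, as in Slc25a53, depth limits what can be said.

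No paired analysis was possible because the groups share no replicate number.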

Other observations

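The markers of other cell types in whole liver are given as values, and their part in the results was not tested. Over all genes tested, 50.3% had a log2 fold change above 0 and 4.04% were higher at an unadjusted p under 0.05. Of 8 genes of Kupffer cells and macrophages, all tested, 7 had a log2 fold change above 0, with summed levels of 193 and 204 CPM in the control libraries and 220 to 239 in those labelled HuR hKO. All 6 endothelial genes were above 0 (158 to 179 CPM against 186 to 205), as were 5 of 6 stellate genes (179 to 181 CPM against 195 to 247), of which Col1a1 and Col3a1 had an unadjusted p under 0.05 in edgeR's test. The 8 hepatocyte genes had a median log2 fold change of -0.07. Cholangiocyte genes summed to 52.8 and 27.5 CPM in the control libraries against 39.6 and 49.7. Spp1, which made up most of that sum in every library, had 31.5 and 22.3 against 34.8 and 41.8 CPM (log2 fold change 0.51, unadjusted p under 0.05, adjusted p = 0.579 in edgeR's test), and Krt19 had 12.2 CPM in mouse 1 and below 2 CPM in each of the other mice. Lymphocyte genes summed to 7.59 to 13.3 CPM over the 4 libraries and adipocyte genes to 9.995 and 9.02 CPM in the control libraries against 11.7 and 18.1. Of the adipocyte genes Fabp4 made up most of the sum, with 8.57 and 7.23 against 10.1 and 16.0 CPM (log2 fold change 0.73, unadjusted p under 0.05, adjusted p = 0.555 in edgeR's test), and Adipoq was below 1 CPM in each library. The 5 genes of skeletal muscle summed to less than 1 CPM in each library.

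Among the tested members, the highest of the 4 values was in mouse 4 in 14, in mouse 2 in 13, in mouse 1 in 8 and in mouse 3 in 5. Over all genes tested the shares were 26.7%, 21.9%, 29.1% and 22.3% in that order of mice, against 35%, 32.5%, 20% and 12.5% in the members.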
